A study of Mus musculus with 10 samples.

Results

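The regions described here are stretches of mouse autosomes (chromosomes 1 to 19) that carried a called ATAC-seq peak in both Smarca5 conditional knockout (cKO) libraries of cKIT+ testis cells and in neither wild-type library of the same sort. They were selected by the deposited cKIT+ peak lists themselves: the 4 lists were merged into 160134 autosomal regions, and a region was kept where the peaks of both cKO lists had a −log10 q (the peak caller's significance, adjusted for multiple testing) of at least 5 and no wild-type peak touched it. This gave 1055 regions, 0.659% of all merged regions and 2.10% of the 50164 regions that reached the threshold in both cKO lists. Because these lists chose the regions, their cKIT+ values are given as a description with no test. The 4 ATAC-seq libraries of 4C-sorted cells were not used in the choice and are the independent measurement.

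ATAC-seq marks accessible DNA through the insertions of a transposase. Each library came from 50000 sorted cells. One sort took cKIT+ cells and the other cells with a 4C DNA content by Hoechst dye (labelled pachytene or pachytene-like). Both were made from wild type C57BL6 mice (2 libraries) and from cKO mice of genotype Smarca5 fl/delta; Ddx4-Cre+ (2 libraries). Whole-testis single-cell RNA samples were available for cKO alone (2 samples). The labels do not say whether replicates came from separate animals, so the spread between libraries may be technical, and no wild-type mouse is described as carrying the floxed allele or the Cre.

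SMARCA5 is an ATPase of the ISWI remodelers, which slide and space nucleosomes. In other cell types these remodelers are needed for regular nucleosome arrays around CTCF sites. Ddx4-Cre recombines in germ cells from before birth, so somatic cells of the cKO testis keep an intact floxed allele. The receptor KIT marks differentiating spermatogonia, the mitotic cells that go on to enter meiosis, but it is also carried by Leydig and mast cells, so a cKIT+ sort can hold other cell types.

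The libraries differed in ways that bear on the choice. Wild-type replicate 1 of the cKIT+ sort had 43672 autosomal peaks covering 15389223 bp, 28.9% of them with −log10 q of at least 5, and its peak names follow another pattern than those of the other lists. The other 3 cKIT+ lists held 110176 (wild-type replicate 2), 124415 and 119128 (cKO) peaks. Of the 50164 regions that reached the threshold in both cKO lists, 49.3% had a peak in wild-type replicate 1 and 97.1% had one in replicate 2. The absence of a wild-type peak was therefore set almost wholly by replicate 2: with replicate 1 left out of the rule the regions numbered 1454, and with replicate 2 left out 25754. Leaving out cKO replicate 1 or 2 gave 3154 or 2519. The mirror-image choice, −log10 q of at least 5 in both wild-type lists and no cKO peak, gave 7 of 11703 regions. Asked of wild-type replicate 2 alone, it gave 392 of 46969. These counts cannot be set directly against the main count, since they ask for absence from both long cKO lists. The first also asks for strong peaks in the short list of wild-type replicate 1. No read counts accompany the lists, so the depth of the ATAC-seq libraries is unknown, and a region without a peak is one where none was called, not one shown to be closed.

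Marker genes with a peak within 1000 bp of either annotated end also differed among the cKIT+ lists, in the order wild-type replicates 1 and 2 and cKO replicates 1 and 2. Differentiating spermatogonium markers had one at 7, 8, 9 and 9 of 9 genes, and general germ cell markers at 4 of 4 genes in every list. Undifferentiated spermatogonium markers had one at 6, 7, 7 and 7 of 9 genes. Leptotene or zygotene markers had one at 8 of 8 in every list, and pachytene or diplotene markers at 6, 7, 7 and 7 of 8. For round spermatid markers the counts were 2, 2, 3 and 2 of 7, and for elongating spermatid markers 3, 2, 1 and 3 of 6. Sertoli markers had one at 3, 6, 8 and 8 of 8 genes, Leydig markers at 1, 4, 4 and 5 of 6. Macrophage markers had one at 1, 5, 3 and 3 of 5 and mast cell markers at 0, 2, 1 and 1 of 5. For peritubular or stromal markers the counts were 3, 6, 5 and 6 of 6, for endothelial markers 2, 2, 3 and 2 of 5 and for T cell markers 1, 3, 3 and 3 of 4. The part of list length or cell makeup in the set of 1055 regions was not tested.

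Few of the regions lay at promoters. For the regions that did, the RefSeq promoter sequence (build GRCm38.p6, the same as the mm10 build of the peaks) shows which bases the region covered. The 250 bases upstream of the annotated start site are printed 5′ to 3′ on the strand of the gene, with the bases inside the cKO-only region in capitals. Igf2bp3 is shown as the CpG-rich promoter that lay wholly inside a region and was open in all 4C-sorted lists, Gjc3 as a CpG-poor one covered throughout, Tpst2 and Ankrd13b as promoters with a peak in a single 4C-sorted cKO list, and Eprn as the promoter with the highest fold in its weaker cKO library.
Igf2bp3: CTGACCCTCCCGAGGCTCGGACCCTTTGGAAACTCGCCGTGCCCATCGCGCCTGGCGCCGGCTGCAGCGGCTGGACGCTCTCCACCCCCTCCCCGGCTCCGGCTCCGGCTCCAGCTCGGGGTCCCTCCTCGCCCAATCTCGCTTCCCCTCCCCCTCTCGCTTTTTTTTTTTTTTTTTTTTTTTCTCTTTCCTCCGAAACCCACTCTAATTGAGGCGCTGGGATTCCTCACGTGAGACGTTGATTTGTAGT
Gjc3: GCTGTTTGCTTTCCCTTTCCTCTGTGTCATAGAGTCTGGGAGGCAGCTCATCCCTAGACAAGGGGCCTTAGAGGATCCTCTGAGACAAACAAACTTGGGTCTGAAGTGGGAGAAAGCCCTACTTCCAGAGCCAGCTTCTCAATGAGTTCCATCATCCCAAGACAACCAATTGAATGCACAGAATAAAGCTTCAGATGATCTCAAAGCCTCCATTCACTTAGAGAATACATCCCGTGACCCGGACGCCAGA
Tpst2: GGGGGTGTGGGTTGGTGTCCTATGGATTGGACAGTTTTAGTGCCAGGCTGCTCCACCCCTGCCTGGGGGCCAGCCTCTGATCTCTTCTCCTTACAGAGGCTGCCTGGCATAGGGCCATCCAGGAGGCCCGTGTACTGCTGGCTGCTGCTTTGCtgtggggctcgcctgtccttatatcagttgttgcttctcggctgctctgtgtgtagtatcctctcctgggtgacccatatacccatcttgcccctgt
Ankrd13b: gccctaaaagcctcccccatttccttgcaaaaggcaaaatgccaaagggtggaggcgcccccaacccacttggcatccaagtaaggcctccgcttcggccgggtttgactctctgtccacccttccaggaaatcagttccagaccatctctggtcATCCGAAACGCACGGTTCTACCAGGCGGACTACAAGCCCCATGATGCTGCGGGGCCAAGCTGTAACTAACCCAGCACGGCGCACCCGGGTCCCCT
Eprn: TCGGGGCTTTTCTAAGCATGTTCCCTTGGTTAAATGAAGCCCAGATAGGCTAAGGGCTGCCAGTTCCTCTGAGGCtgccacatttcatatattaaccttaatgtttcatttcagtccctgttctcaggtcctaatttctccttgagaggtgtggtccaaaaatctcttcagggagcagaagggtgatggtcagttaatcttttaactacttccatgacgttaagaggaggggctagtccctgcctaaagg

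The Igf2bp3 region (chr6:49214713-49215671) had the lowest fold enrichment of the 9 promoter regions. Igf2bp3 encodes an RNA-binding protein. Its peaks stood 2.82-fold and 3.19-fold over the local background in the cKO replicates (3.01 ± 0.256, SD, n = 2), with −log10 q of 8.89 and 8.97, and the nearest wild-type cKIT+ peak was 2124 bp away. In 4C-sorted cells the region had a peak in every list, at 3.17-fold and 3.40-fold in wild type and 2.50-fold and 2.77-fold in cKO. The wild-type 4C-sorted values lay above the cKO values without overlap, and how often this occurs over other regions was not counted. The 300-base promoter window held 25 CpG dinucleotides with an observed to expected ratio of 0.982.

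Gjc3, a connexin gene of glial gap junctions, had a region (chr5:137963082-137963502) at 6.21-fold and 5.23-fold (5.72 ± 0.696, SD, n = 2), and a 4C-sorted peak in replicate 1 of each genotype (3.19-fold in wild type, 3.59-fold in cKO). Tpst2, a tyrosylprotein sulfotransferase gene, stood at 4.06-fold and 4.77-fold, and Ankrd13b, which encodes an ankyrin repeat protein, at 2.83-fold and 4.13-fold. Trpc7, a cation channel gene, had a region over its start site (chr13:56895498-56895793) at 6.13-fold and 5.63-fold in cKIT+ cKO, and peaks in all 4 4C-sorted lists, at 5.21-fold and 5.98-fold in wild type and 6.17-fold and 4.77-fold in cKO. The Trpc7 values of the 2 genotypes overlapped in 4C-sorted cells.

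Over the 9 promoter windows that a region overlapped, GC content had a median of 56.0% (45.3% to 60.7%), and 2 windows (22.2%), those of Ankrd13b and Igf2bp3, had a CpG ratio above 0.6. The share above 0.6 was 78.6% of 12035 windows at regions with a peak in all 4 cKIT+ lists, 22.1% of 1162 windows at regions with a peak in wild-type replicate 2 but not 1, and 36.4% of all 31396 windows. Motifs were searched on both strands of the 300-base windows. The CCAAT box (CCAAT) was in 3 of the 9 windows (Gjc3, Tpst2 and Igf2bp3) and in 37.3% of all windows. The GC box (GGGCGG) was in 0 of 9 and in 36.0% of all windows, and the ETS core (CCGGAA) in 0 of 9 and 15.1%. The CTCF consensus was in 0 of 9 windows and 0.573% of all windows. The CCAAT share of the 9 lay near that of all windows, and 9 windows are too few to place the others.

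The peaks at the 1055 regions were modest and narrow. Fold enrichment had a median of 5.51 in cKO replicate 1 (2.22 to 10.8) and 5.46 in replicate 2 (2.12 to 10.2), and −log10 q had medians of 6.92 and 6.77. The 2 cKO libraries gave fold values within a ratio of 1.25 of each other at 891 regions (84.5%). Across the 1055 regions, log2 fold correlated between the 2 libraries with r = 0.65, a description over regions that share these libraries and the threshold. Median width was 193 bp, against 287 bp for all cKIT+ regions. It was 189 bp for the 13285 regions with weaker peaks in both cKO lists and none in wild type. Among regions that also passed the threshold, it was 437 bp for the 24375 with a peak in wild-type replicate 2 but not 1. For the 24335 with a peak in all 4 lists it was 750 bp. A region spans all its merged peaks, so those found in more lists can be wider by construction. The weaker of the 2 cKO peaks had a median fold of 5.24, against 5.88 in the set shared with wild-type replicate 2 but not 1 and 6.92 in the set in all 4 lists.

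**Figure D1:**
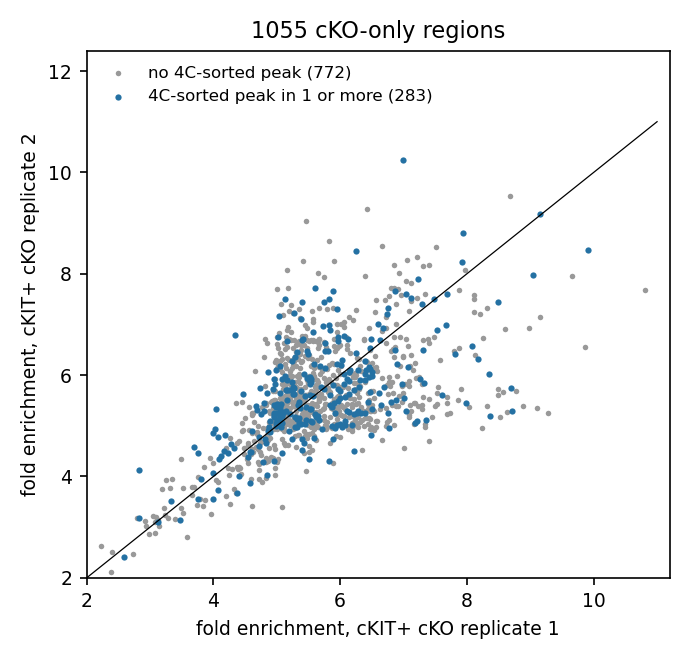
Fold enrichment over local background of the 1055 cKO-only regions in cKIT+ cKO replicate 1 (horizontal axis) and replicate 2 (vertical axis), 1 point per region, with the line of equal values. Blue points are the 283 regions with a peak in 1 or more 4C-sorted lists and grey points the 772 without, and both kinds spread over the same range.

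The share of regions without a wild-type peak fell as the cKO peaks became stronger. Of the regions with a peak in both cKO lists, those whose lower −log10 q lay from 1 to 3 lacked a wild-type peak in 34.7% of cases and those from 3 to 5 in 17.2%. Above the threshold the shares were 6.56% from 5 to 7 (787 regions), 2.07% from 7 to 10 (228), 0.389% from 10 to 15 (38) and 0.0115% at 15 or more (2). Of the 1055, 787 thus had a lower −log10 q under 7. Those just inside the threshold included regions in Rab11fip5 and 192205 bp from Rap2a, with a lower −log10 q of 5.002 and 5.003. Those just outside it lay near Cdk12, BC107364 and Ptpn14, with 4.999, 4.995 and 4.994. When the 4 cKIT+ lists were each shortened to the strongest 43672 peaks, the lowest −log10 q kept was 1.00 in wild-type replicate 1, 5.43 in wild-type replicate 2, and 6.78 and 8.001 in the cKO lists. Both cKO peaks were then kept at 198 of the 1055 regions, while the rule applied to the shortened lists gave 2250 regions.

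**Figure D2:**
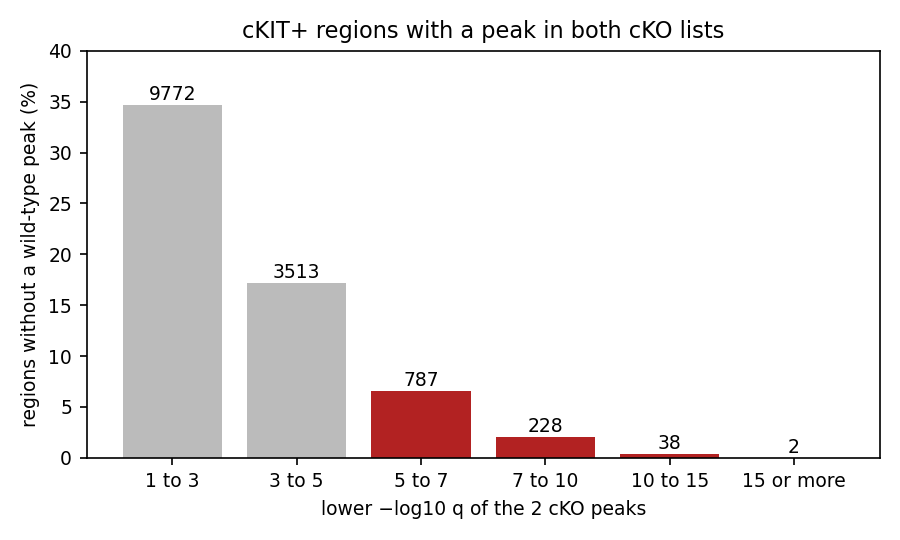
Share of autosomal cKIT+ regions without a wild-type peak (vertical axis, percent) by the lower −log10 q of the 2 cKO peaks (horizontal axis, bins), with the number of such regions over each bar. Red bars hold the 1055 regions that passed the threshold of 5, and the share falls from 34.7% in the weakest bin to 0.0115% in the strongest.

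The nearest wild-type cKIT+ peak lay at a median of 3886 bp (interquartile range 1504.5 to 9009), within 1000 bp for 140 regions (13.3%) and beyond 10000 bp for 239 (22.7%). The 13285 regions with weaker peaks in both cKO lists and none in wild type had a median of 4547 bp, with 14.8% within 1000 bp. Wild-type replicate 2 held the nearest peak in 852 cases. The 1055 regions were spread over all autosomes, from 1.60% of the regions passing the threshold on chromosome 14 to 2.57% on chromosome 8. They shared 1 Mb windows to a limited extent: 498 windows held 1, 171 held 2, 40 held 3 and 18 held 4. The fullest window was 116 to 117 Mb of chromosome 5, with 7 regions in or near Cit, Hspb8, Srrm4 and Tmem233 among 31 that passed the threshold there. It was followed by 123 to 124 Mb of chromosome 8 with 6 regions, and by 5 each at 94 to 95 Mb of chromosome 10 and 34 to 35 Mb of chromosome 17. Spock1, Srrm4 and Tmcc3 each held 3 regions, the most of any gene.

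The regions with the highest fold (ranked by the weaker cKO library) lay inside or beside genes of varied function. In Traf3ip1, a component of intraflagellar transport, the region at chr1:91523892-91524012 stood at 9.16-fold and 9.18-fold (9.17 ± 0.0171, SD, n = 2), and it had a 4C-sorted peak in wild-type replicate 2 alone, at 3.76-fold. A region 2082 bp from Igll1, a surrogate light chain gene of B cell precursors (chr16:16858372-16858589), stood at 8.68-fold and 9.54-fold with no 4C-sorted peak. In 4C-sorted cells neither site had a cKO peak.

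A region 15597 bp from Ercc6, which encodes the CSB ATPase of transcription-coupled DNA repair, stood at 9.91-fold and 8.46-fold. In 4C-sorted cells it had peaks in wild-type replicate 2 (2.98-fold) and cKO replicate 2 (3.78-fold). A region 21085 bp from Sfpq, a splicing factor gene, stood at 9.04-fold and 7.97-fold and had a 4C-sorted peak in cKO replicate 1 (4.06-fold). These 4C-sorted peaks were present in 1 library of a genotype and not in the other.

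Of the 12 highest regions, those near the tRNA gene n-TMcat2 and near Mdga1 are described with the tRNA genes and the 4C-sorted states. The others lay near the zinc finger gene Zbtb8b (7.97-fold and 8.07-fold), in the adducin gene Add3 (9.65-fold and 7.96-fold), near Lyrm9 (7.88-fold and 7.69-fold), in Fcgr4, an IgG receptor gene of myeloid cells (10.8-fold and 7.67-fold), in the sodium channel gene Scn11a (7.68-fold and 7.60-fold) and in the acyltransferase gene Agpat4 (8.11-fold and 7.58-fold). Of these 6, Scn11a alone had a 4C-sorted peak, in wild-type replicate 2 at 5.49-fold. The widest regions were those near Btn2a2 (1438 bp) and Pde2a (1294 bp) and in Cnnm1 (1030 bp).

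Transfer RNA genes stood near a small number of the regions. A tRNA gene lay within 500 bp of 7 of the 1055 regions (0.664%), against 0.142% of all cKIT+ regions, 0.111% of those shared with wild-type replicate 2 but not 1, and 0.592% of those in all 4 lists. Of the 7, 4 lay on chromosome 13 between 21264349 and 23507523, a stretch rich in tRNA genes. The strongest, near the methionine tRNA gene n-TMcat2 (chr13:21907045-21907249), stood at 7.94-fold and 8.80-fold (8.37 ± 0.606, SD, n = 2). In 4C-sorted cells it had peaks in both cKO lists, at 3.39-fold and 3.45-fold, and in neither wild-type list. The region near n-TQctg3 (chr3:96479332-96479710) stood at 6.77-fold and 7.57-fold with no 4C-sorted peak. No region had a miRNA gene within 500 bp.

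The cKO-only regions held a smaller share of start sites than cKIT+ regions as a whole, as did the other sets missing from 1 genotype. A start site lay within 1000 bp of 29 of the 1023 regions on chromosomes that the promoter table covers (2.83%), against 11.4% of all cKIT+ regions, 6.42% of those shared with wild-type replicate 2 but not 1, and 40.6% of those in all 4 lists. It was 4.93% in the weaker cKO set and 3.03% in the 1494 regions with a peak in both wild-type lists and no cKO list, of any strength. Either end of a gene lay within 1000 bp of 82 regions (7.77%, exact Clopper-Pearson 95% interval 6.23% to 9.56%, which covers counting error only), against 16.7%, 12.3% and 47.2% in the same sets. The wild-type-only set had 7.36% and the weaker cKO set 10.1%. With wild-type replicate 2 left out of the rule, the share at a gene end was 12.04%. Inside genes lay 593 of the regions (56.2%), against 65.0% of all cKIT+ regions, and more than 10000 bp from any gene end lay 542 (51.4%), against 48.9% of all cKIT+ regions, 54.3% of the weaker cKO set and 70.1% of the wild-type-only set. No test was made of these shares, since peak strength differed between the sets by construction.

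**Figure D3:**
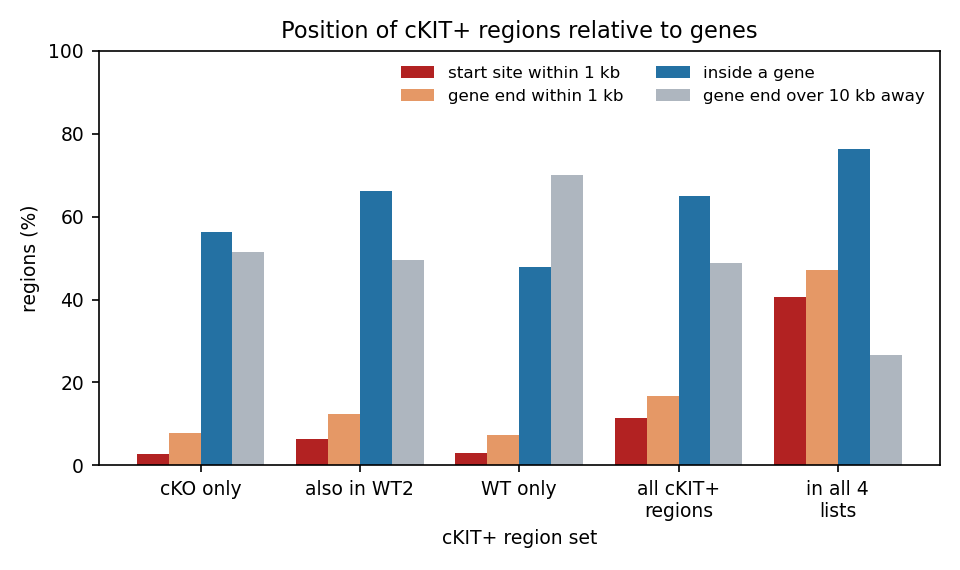
Share of cKIT+ regions (vertical axis, percent) with a start site within 1 kb, with a gene end within 1 kb, inside a gene, or more than 10 kb from a gene end, in 5 region sets (horizontal axis; WT2 is wild-type replicate 2). The cKO-only set (1055 regions) has 2.83% at start sites and the set in all 4 lists (24335 regions) 40.6%.

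Of the regions near start sites, those of Myh13 (skeletal muscle myosin, 5.45-fold and 6.98-fold), Fbxl16 (5.43-fold and 5.24-fold), Foxb2 (a forkhead factor, 4.83-fold and 4.29-fold), Aebp2 (a partner of Polycomb repressive complex, 4.36-fold and 3.67-fold) and the phosphatase gene Dusp3 (3.39-fold and 3.16-fold) had no 4C-sorted peak. The wild-type cKIT+ peak nearest to the Aebp2 region was 879 bp away and that nearest to Myh13 10168 bp away. These genes were picked from the 29 after their values were seen.

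Few genes of any kind had one of the regions at an end: 52 of 20665 autosomal coding genes (0.252%). Lists of meiotic axis and recombination genes, spermatogonial regulators, piRNA factors, chromatin remodelers, spermatid genes and somatic cell markers held 227 autosomal genes. Of these, 0 had a cKO-only region within 1000 bp of an end. A region of the set with a peak in wild-type replicate 2 but not 1 lay there in 18, against 8.27% of all 20665 coding genes. A region found in all 4 cKIT+ lists lay there in 123, against 45.3% of all coding genes. With cKO-only regions at 0.252% of all coding genes, a count of 0 among 227 is not a result about the lists. Taking instead the gene that holds a region or the nearest coding gene, 16 of the 227 (7.05%) were linked to a region, against 1020 of all 20665 autosomal coding genes (4.94%). This wider link was drawn after the values were seen.

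Among the meiotic genes it reached Hormad2, Spo11 and Rec114. Spo11 encodes the protein that makes meiotic DNA breaks, and a region 15104 bp from it stood at 5.61-fold and 5.76-fold. Rec114, a Spo11 accessory factor, held a region at 5.64-fold and 5.07-fold. Neither had a 4C-sorted peak. Among the spermatogonial regulators, Dmrtb1, a DM domain factor of late spermatogonia, had a region 6770 bp away (4.64-fold and 4.70-fold). Id4, a marker of stem spermatogonia, had one 13916 bp away (6.27-fold and 6.34-fold), and Gfra1, the GDNF receptor subunit of stem spermatogonia, had 2. None of the spermatogonial regions had a 4C-sorted peak either.

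Piwil1, the PIWI protein of pachytene piRNAs, had a region 54348 bp away at 5.26-fold and 5.62-fold, with 4C-sorted peaks in wild-type replicate 1 (6.20-fold) and in both cKO lists (4.51-fold and 5.04-fold). Bptf, the large subunit of the NURF remodeler, held a region at 4.97-fold and 5.92-fold. Chd6, Hdac2 and Arid1b were the other chromatin genes linked to a region, and Catsper2 and Dnah8 the spermatid and flagellum genes. Of the somatic markers, Sox9 (Sertoli), Kdr (endothelium) and Cpa3 (mast cells) were the nearest coding gene to a region, at 78691, 105343 and 16408 bp, and none of the Leydig, macrophage or T cell genes was linked to one. Piwil1 and Hormad2 were the list genes whose regions had 4C-sorted peaks.

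In the 4C-sorted lists, most of the regions had no peak in any library. The cKO lists of this sort were longer, at 51920 and 55233 autosomal peaks against 47736 and 49488 for the wild-type lists. A smaller share of the cKO peaks had −log10 q of at least 5 (32.9% and 33.3%, against 38.3% and 38.8%). What part these list differences had in the genotype comparisons of 4C-sorted cells was not tested. A peak was present at 156 (14.8%) and 149 (14.1%) of the regions in wild-type replicates 1 and 2, and at 158 (15.0%) and 180 (17.1%) in cKO replicates 1 and 2. Both cKO libraries lay above both wild-type libraries, but cKO replicate 1 exceeded wild-type replicate 1 by 2 regions. The mean was 14.5% ± 0.469 (SD, n = 2) in wild type and 16.0% ± 1.47 (SD, n = 2) in cKO, a difference of 1.56 percentage points (two-sided exact permutation test over libraries, p = 0.333, the lowest value possible with 2 and 2 libraries). All cKIT+ regions differed by 1.93 points in the same direction (20.3% against 22.3%), and the set with a peak in wild-type replicate 2 but not 1 by 1.81 points. In percentage points and with all 4C-sorted peaks counted, the difference at the cKO-only regions was thus no larger than at cKIT+ regions in general. The 2 sets start from unlike shares. With 4C-sorted peaks limited to −log10 q of at least 5, the direction turned: 5.31% and 4.36% of the regions had a peak in wild type and 3.32% and 3.70% in cKO, a difference of -1.33 points (exact permutation p = 0.333), and over all cKIT+ regions the difference was -0.33 points.

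**Figure D4:**
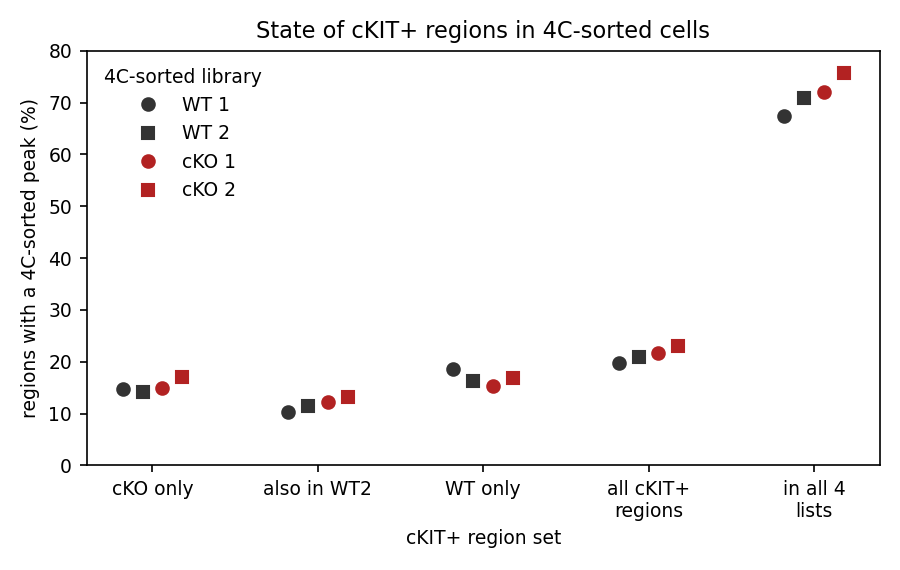
Share of cKIT+ regions with a peak in each 4C-sorted library (vertical axis, percent) for 5 region sets (horizontal axis; WT2 is wild-type replicate 2). Points are single libraries, grey for wild type and red for cKO, and at the cKO-only regions they lie between 14.1% and 17.1%, close to one another.

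By region, 772 (73.2%) had no 4C-sorted peak and 283 (26.8%) had 1 or more, against 29% of all cKIT+ regions. A peak in at least 1 wild-type 4C-sorted list was present at 206 regions (19.5%), against 23.7% of all cKIT+ regions, and in at least 1 cKO list at 232 (22.0%), against 25.8%. All 4 lists had a peak at 69 regions (6.54%), against 15.3% of all cKIT+ regions. Both cKO lists and neither wild-type list had one at 15 regions (1.42%), against 1.29%, and both wild-type lists and neither cKO list at 9 (0.853%), against 0.548%. These last 2 shares lay near those of all cKIT+ regions. Leaving out any 1 of the 8 libraries moved the 15 to between 23 and 305 and the 9 to between 14 and 129, with the highest counts when wild-type replicate 2 of the cKIT+ sort was left out. A further 104 regions had a peak in a single 4C-sorted list: 23 and 19 in wild type, 27 and 35 in cKO.

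Regions that shared the cKO-only pattern in both sorts included the one near n-TMcat2. Others lay in the adhesion gene Cadm4 (cKIT+ cKO 6.47-fold and 6.13-fold, 4C-sorted cKO 3.30-fold and 3.07-fold) and in Macroh2a2, a histone variant gene (6.39-fold and 5.90-fold, then 3.97-fold and 3.93-fold). A region 12251 bp from the homeobox gene Dmbx1 stood at 5.48-fold and 5.94-fold in cKIT+ cKO and at 5.18-fold and 4.79-fold in 4C-sorted cKO cells. One near the connexin gene Gja3 stood at 5.83-fold and 5.42-fold, then 3.90-fold and 4.65-fold, and one in the nesprin gene Syne2 at 5.41-fold and 6.71-fold, then 4.52-fold and 3.13-fold. Both 4C-sorted peaks at Cadm4, Macroh2a2, Gja3, Syne2 and the n-TMcat2 region had −log10 q below 5.

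The opposite state, present in 4C-sorted wild type and absent in 4C-sorted cKO, included a region 10036 bp from Hormad2, a meiotic axis gene (chr11:4451234-4451380). It stood at 5.37-fold and 5.35-fold in cKIT+ cKO (5.36 ± 0.012, SD, n = 2) and at 3.34-fold and 3.50-fold in 4C-sorted wild type. A region 6733 bp from Hrob, a homologous recombination factor needed in meiosis, stood at 6.88-fold and 5.51-fold in cKIT+ cKO and at 5.98-fold and 4.38-fold in 4C-sorted wild type. The region in Zfhx3, a homeodomain factor gene, stood at 8.18-fold and 6.31-fold, then 5.42-fold and 4.46-fold. Others lay in Dscaml1, Asic2 and Gm29758. The 4C-sorted peaks near Hormad2 had −log10 q of 1.72 and 1.99, and none of the 6 regions reached 5 in both wild-type lists. With 4C-sorted peaks limited to −log10 q of at least 5, both cKO lists and neither wild-type list had one at 2 of the 1055 regions (0.190%, against 0.396% of all cKIT+ regions). Both wild-type lists and neither cKO list had one at 9 (0.853%, against 0.603%). None of the 2 was among the 15 regions, and none of these 9 among the 9 regions, found with all 4C-sorted peaks.

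The regions found in every 4C-sorted list were led by one 37689 bp from Mdga1 (chr17:29789683-29790267). It stood at 7.92-fold and 8.24-fold in cKIT+ cKO, at 7.84-fold and 4.85-fold in 4C-sorted wild type and at 7.42-fold and 5.77-fold in 4C-sorted cKO. A region in Vdr, the vitamin D receptor gene, stood at 6.67-fold and 6.92-fold, then at 3.87-fold and 3.66-fold in wild type and 3.38-fold and 4.48-fold in cKO. One far from Rgs17, a regulator of G protein signalling, stood at 6.74-fold and 7.21-fold, then at 5.996-fold and 7.50-fold in wild type and 4.12-fold and 4.26-fold in cKO. Others with a peak in every 4C-sorted list lay 205202 bp from Rragc, 10333 bp from Gkn3 and 14841 bp from Klhl22. The genotypes overlapped at Mdga1, Vdr, Gkn3 and Klhl22, and did not at Rgs17 and Rragc, where wild type lay higher. How often the genotypes separate in this way was not counted over other regions. Over the 69 regions with a peak in every 4C-sorted list, median fold was 4.92 and 4.65 in 4C-sorted wild type and 4.31 and 4.41 in cKO. The same medians were not taken over all cKIT+ regions with a peak in every 4C-sorted list. Whether this difference is particular to the 69 is therefore unknown.

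**Figure D5:**
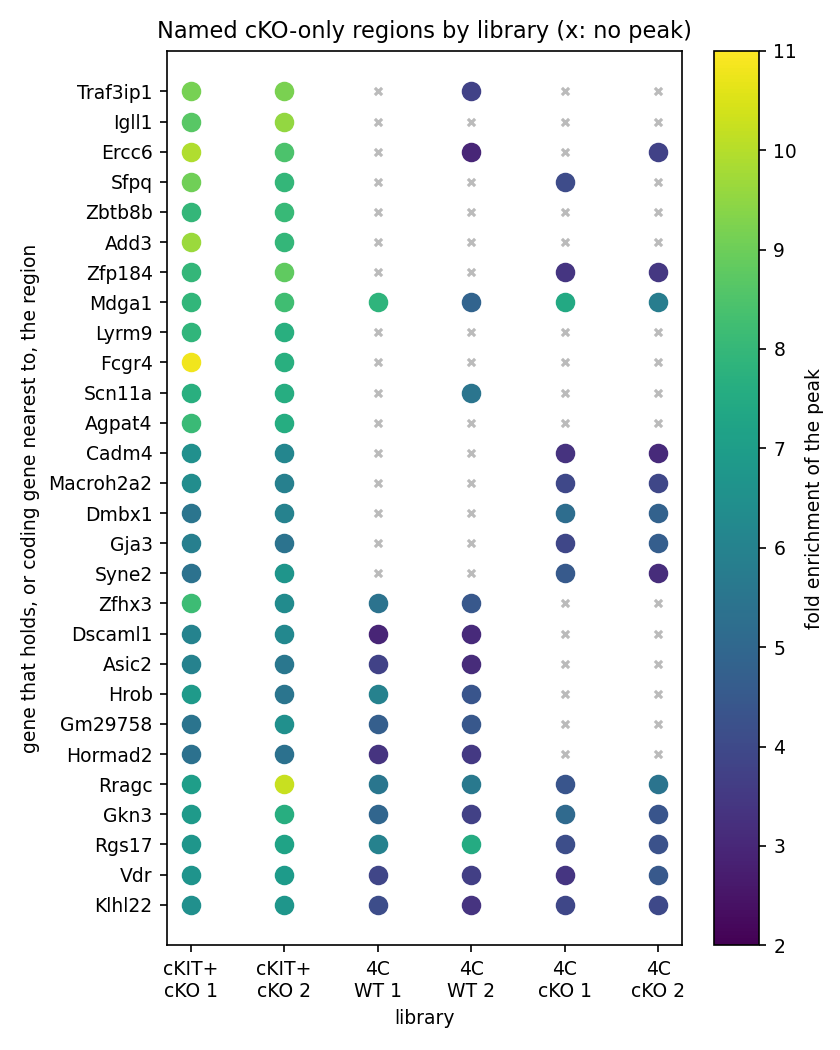
Fold enrichment (colour) of named cKO-only regions (rows, by the gene that holds or the coding gene nearest to the region) in the 2 cKIT+ cKO and the 4 4C-sorted libraries (columns), with a cross where no peak was called. The rows run from the regions with the highest cKIT+ fold to those with 4C-sorted peaks in both cKO lists, in both wild-type lists and in all 4, and the Zfp184 row is the region near n-TMcat2.

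Among the cKO-only regions, the share with a 4C-sorted peak varied with position and strength. A peak was present at 31 of the 82 regions within 1000 bp of a gene end (37.8%) and 12 of the 29 within 1000 bp of a start site (41.4%), and at 135 of the 542 more than 10000 bp from a gene end (24.9%). Of the 140 regions with a wild-type cKIT+ peak within 1000 bp, 42 (30%) had one, and of the 239 with none within 10000 bp, 52 (21.8%). By the lower −log10 q of the cKO peaks, the share was 24.4% from 5 to 7 (192 of 787 regions). It was 33.3% from 7 to 10 (76 of 228) and 34.2% from 10 to 15 (13 of 38). At 15 or more, 2 of 2 regions had one. In the set with a peak in wild-type replicate 2 but not 1, the share did not rise over these bins (21.1%, 20.2%, 19.3% and 14.3%). That set held 4335 or more regions per bin. Other region sets were not compared at the same positions. The groups of cKO-only regions overlap and no test was made.

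The transcripts of nearby genes could be read in cKO testis alone, so no genotype comparison was possible. Droplet RNA profiles of 7413 and 12933 cells gave clusters of 404 and 570 cells that were differentiating spermatogonium-like by their markers, with Dmrt1, Uchl1 and Crabp1 among the leading genes. Kit stood at 71.8 and 78.7 CPM (UMI counts per 1e6 UMIs of the class) in these cells and at 234 and 139 CPM in the Leydig-like cells. Smarca5 stood at 336 and 206 CPM in the spermatogonium-like cells, and since the kit reads transcript 3′ ends and the deleted part is not given in the labels, this does not check the deletion. Of the 956 measured coding genes whose annotated end was the nearest to a region, 440 (46.0%) reached 10 CPM in both samples in these cells. Their medians were 9.97 and 9.76 CPM. A gene that holds a region was left out where the end of another coding gene lay nearer, and the other region sets were treated alike. The share was 45.7% for the genes of all cKIT+ regions, 47.5% for those of regions with a peak in wild-type replicate 2 but not 1, 56.6% for those of regions in all 4 lists and 42.3% for all autosomal coding genes. The share for the cKO-only regions thus lay near that of all cKIT+ regions.

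Genes near individual regions ranged from abundant to undetected in the spermatogonium-like cells. Sfpq stood at 356 and 198 CPM, Chd6 at 182 and 130, Hdac2 at 153 and 131, Add3 at 107 and 74.4, Rec114 at 76.8 and 106, Hormad2 at 82.7 and 50, and Igf2bp3 at 83.7 and 73.2. Igll1, Fcgr4, Gkn3, Vdr, Cpa3 and Olfr373 had 0 UMIs there in both samples, against a limit of 2.99 and 1.83 CPM that a count of 0 allows. Trpc7 stood at 0 and 0.6 CPM, below that limit. These are levels of a class rebuilt from whole cKO testis, not of the sorted cells.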

How the data were processed

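ATAC-seq peaks had been called by the authors in each library on mm10, per the submitters' processing notes, which name cutadapt, Bowtie2 and MACS2; their versions and settings are not given in the sources used here. The deposited peak lists give for every peak its score, the fold (a ratio to local background) and −log10 p and −log10 q. The fold and −log10 q are the authors' own values, used to describe, rank and filter peaks. Touching or overlapping autosomal peaks of the 4 cKIT+ lists were merged, the highest peak of a library gave its value, and a 1 bp overlap counted as a peak in a 4C-sorted list. Genes, tRNAs and promoter windows (250 bases before to 50 after a start site) came from RefSeq tables of GRCm38.p6, the mm10 assembly; the promoter table used here covers no chromosome 18. The share with a 4C-sorted peak was compared by an exact permutation test over libraries. Region code was tested on simulated lists.

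Single-cell files hold deposited UMI counts, made with Cell Ranger 7.1.0 and 9.0.1 per the file headers; the notes also name Seurat 4.1.0. Cells with at least 1000 UMIs, 500 genes and at most 10% mitochondrial UMIs were kept (8098 and 14262 barcodes), and 685 and 1329 doublets called by Scrublet in scanpy 1.11.5 (expected rate 0.8% per 1000 cells) were removed. The samples shared 27 barcode sequences among kept cells. Leiden clustering (igraph 0.11.9) used up to 3000 variable genes, without non-marker genes near the regions, 30 components and resolution 1. A cluster was named where at least 3 markers were raised. Counts were summed per class to CPM.

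Named regions were the 12 with the highest fold in the weaker cKO library, the 6 highest in each of 3 4C-sorted states, regions at ends of listed genes, the 3 on either side of the threshold, the 3 widest and the fullest 1 Mb windows; tRNA and promoter regions were added after the values were seen. Of the regions just inside the threshold, 1 is not reported here. The regions, gene lists, motifs and tests were chosen with earlier results of these data known. Alternatives varied the thresholds, merging, list length, overlap and libraries.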

Additional observations from a re-analysis of the deposited data

Results flagged for a closer look

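At 9 of the 1055 regions the 2 sorts ran in opposite directions: cKIT+ cells had peaks in both cKO and neither wild-type list, and 4C-sorted cells had peaks in both wild-type and neither cKO list. They were flagged because every library of one sort moved one way and every library of the other the opposite way. The difference between the sorts was not tested, and the cKIT+ side is fixed by the choice of regions. The same 4C-sorted state was found at 0.548% of all cKIT+ regions, against 0.853% here. With 4C-sorted peaks limited to −log10 q of at least 5 the count was again 9, at other regions. The regions near Hormad2 and Hrob belong to this group.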

How the results depend on the processing

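The number of regions was 4568 at −log10 q of at least 3, 40 at 10 and 14340 with no threshold, 2250 with lists of equal length, and 1676 where wild-type peaks counted from −log10 q of 2. Leaving out 1 cKIT+ library gave 1454 to 25754, the extremes without wild-type replicates 1 and 2. An alternative chosen after seeing the data, equal lists without wild-type replicate 1, gave 5256. Merging across 500 bp gave 1013, and asking for no wild-type peak within 1000 bp gave 915.

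The cKO minus wild-type share with a 4C-sorted peak kept its sign in 16 of the 17 alternatives that could change it and turned to -1.33 points with 4C-sorted peaks of −log10 q of at least 5. It ranged from 0.521 to 2.61 points when 1 library was left out. With genotype labels exchanged within replicate numbers (replicate block), the value stayed 1.56 points with an exact p of 0.5. The numbers are shared between groups but nothing says that they pair the samples.

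The count with 4C-sorted peaks in both cKO and neither wild-type list was 1 at −log10 q of at least 10, 196 with no threshold, 34 with equal lists and 2 with strong 4C-sorted peaks, and 23 to 305 when 1 library was left out. The opposite count was 0, 109, 12 and 9 under these settings and 14 to 129 when 1 library was left out. The share at a gene end was 10% at −log10 q of at least 10, 9.91% with no threshold, 0.664% within 0 bp of an end and 30.7% within 5000 bp, and 7.99% to 12.04% when 1 library was left out. Counts move with the number of regions chosen; the cause of the turned sign was not tested. Unknown read depth limits every statement that a peak is absent.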

Other observations

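The same rule applied to the sex chromosomes gave 20 regions on X, 1.97% of the 1017 X regions that passed the threshold in both cKO lists, and 3 on Y, of 44. The X share lay within the range of the autosomes (1.60% to 2.57%). Of the 20 X regions, 5 and 4 had a peak in the 4C-sorted wild-type lists and 3 and 5 in the cKO lists. The highest stood at 6.51-fold and 6.04-fold, 242804 bp from its nearest coding gene, the testis histone variant gene H2al1j. Next came regions in Ints6l at 5.95-fold and 5.80-fold and in Igbp1 at 6.01-fold and 5.77-fold. None of these 3 had a 4C-sorted peak.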
